A study of Homo sapiens with 36 samples.

Results

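Transcript levels of the Mediator complex and its CDK8 kinase module were followed in HK-2, an immortalized human cell line derived from the epithelium of the renal proximal tubule. Members were the genes whose symbol on the array is MED followed by a number, with or without a final L, together with CDK8, CDK19 and CCNC. This rule found 31 genes among the 19775 that the arrays represent with a probe set of a single symbol. The set was selected on the values of MED21 with Ota, where this gene was nearly lost, so those values are given here as a description, with no test. The other members entered by their symbol alone.

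The study comprised 36 single-colour arrays, 1 per culture, in 12 groups of 3 biological replicates. Cells of this single line were grown without serum, with EGF, hydrocortisone, insulin and transferrin, and treated near confluence. They received Aa (the label's name) at a high dose, a low dose or not at all, the last with vehicle alone, for 24 h or 48 h. Other cultures received Ota, likewise at a high dose, a low dose or as vehicle alone, for 24 h or 72 h. The vehicle cultures of a compound and time served both doses. The labels give neither full compound names nor concentrations, so the doses cannot be taken as matched between compounds.

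Mediator is a large multi-subunit coactivator that bridges sequence-specific transcription factors and RNA polymerase II. Its core is built from a head and a middle module that contact the polymerase, a tail module that receives many activators, and the MED14 scaffold that runs through all of them. A separable kinase module, made of CDK8 or its paralogue CDK19 with cyclin C (CCNC), MED12 and MED13 or their paralogues, binds the core reversibly and phosphorylates transcription factors and parts of the transcription machinery. Proximal tubule cells depend on the complex as other cells do, and no tubule-specific role is assumed here.

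Each value is the log2 expression of a probe set, and a gene was represented by the probe set with the highest mean over all arrays. Of the 31 members, 29 exceeded a log2 value of 4 on at least 3 arrays of each compound and were tested. MED12L, the paralogue of MED12, and the single-symbol probe set of MED24, a tail subunit, did not pass. No member passed only through treated arrays, since each of the 29 had control arrays over 4. MED6 and MED25 were not found by the rule and were not analysed here. Levels are compared within a probe set only, because brightness differs between probe sets for reasons unrelated to abundance.

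Replicate arrays correlated with r between 0.953 and 0.994 over the tested genes, and between 10055 and 10557 genes exceeded 4 on an array. The arrays of the Ota high dose stood apart: their median over the tested genes was 7.64 ± 0.16 at 24 h, against 8.28 ± 0.06 in the vehicle cultures, and 7.95 ± 0.05 at 72 h, against 8.28 ± 0.02 (SD, n = 3 each). The difference between 3′ and 5′ probe sets for ACTB, a sign of RNA quality, averaged 1.88 ± 0.37 in high dose Ota cultures of 72 h and 1.29 ± 0.15 in their vehicle cultures (SD, n = 3 each). It averaged 1.16 ± 0.15 in high dose Ota cultures of 24 h and 1.08 ± 0.24 in their vehicle cultures (SD, n = 3 each). With the Aa high dose it averaged 1.25 ± 0.30 at 48 h, against 0.86 ± 0.22 with vehicle. At 24 h the Aa averages were 1.01 ± 0.33 with the high dose and 0.79 ± 0.10 with vehicle (SD, n = 3 each). Array medians here and below are those over the tested genes. Over all probe sets the medians were 3.05 to 3.13 with the Ota high dose at 24 h, against 2.91 to 2.95 with vehicle. Changes with arrays shifted to the same median are given beside the main Ota results, and the part of RNA quality was not tested. Of 14 markers of proximal tubule and renal epithelium, 7 exceeded 4 on all vehicle arrays (SLC3A1, SLC4A4, PAX8, KRT8, KRT18, CDH1 and CDH2), while the defining proximal markers LRP2, CUBN, AQP1 and SLC34A1 did not. Of the other lists, 3 of 6 distal nephron, 4 of 5 fibroblast, 1 of 5 endothelial and 0 of 4 leukocyte markers with a probe set did so. Whether cells became fewer or carried less RNA each cannot be told apart in these bulk samples, here and in every result below.

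MED21 is a subunit of the middle module that in yeast pairs with MED7 along a long coiled coil. On its main probe set it lay under the measurable range with the Ota high dose at 24 h. Its log2 values were 9.02, 8.59 and 9.28 in the vehicle cultures, 7.72, 6.76 and 7.93 in the low dose cultures, and 2.80, 2.15 and 3.06 in the high dose cultures. The 3 groups did not overlap, and all 3 high dose arrays lay under 4, a level at which values have no dependable order. On this probe set the high dose level was therefore at least 31.2-fold lower than that of the vehicle cultures. At 72 h the values were 8.39, 8.41 and 8.32 with vehicle, 8.28, 7.89 and 8.22 with the low dose, and 7.03, 5.43 and 6.98 with the high dose. All 3 high dose arrays were again lowest, and their mean was 1.89 below that of the vehicle cultures on the log2 scale. The second MED21 probe set differed in the same direction, by -4.52 at 24 h and -1.29 at 72 h. Its high dose arrays of 24 h, at 4.08, 4.09 and 4.46, lay over 4. Its difference there is thus no bound, and it is smaller than the bound of the main set. On the main set the low dose mean was 1.49 below the vehicle mean at 24 h and 0.24 below it at 72 h. Those arrays did not overlap at either time. On the second set the low dose and vehicle arrays overlapped at 72 h, with a difference of -0.15.

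**Figure D1:**
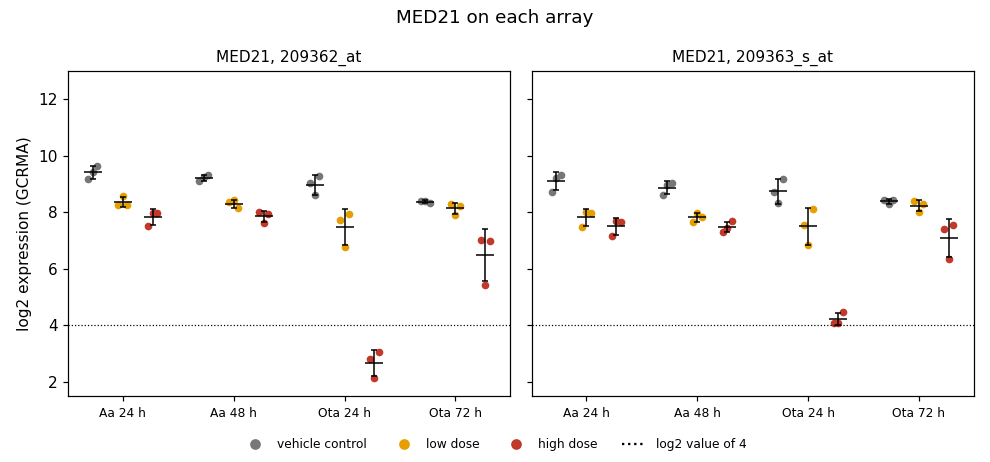
Log2 expression of both MED21 probe sets on each of the 36 arrays (points), with the mean and SD of each group of 3 (bars); the dotted line marks 4. With the Ota high dose at 24 h the main probe set lay between 2.15 and 3.06, against 8.59 to 9.28 in the vehicle cultures.

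With Aa, MED21 fell in all 4 dose comparisons, which the choice of the set did not use. At 24 h its values were 7.50, 7.99 and 7.98 in the high dose cultures and 8.24, 8.55 and 8.27 in the low dose cultures, against 9.18, 9.40 and 9.63 in the vehicle cultures. At 48 h they were 8.01, 7.63 and 7.92 with the high dose and 8.34, 8.41 and 8.14 with the low dose, against 9.10, 9.25 and 9.30 with vehicle. No treated array reached the vehicle range at either time. The high dose changes were -1.58 ± 0.16 at 24 h (SE; limma adjusted p = 1.37e-06) and -1.36 ± 0.16 at 48 h (adjusted p = 2.34e-06), and those of the low dose -1.05 ± 0.16 and -0.92 ± 0.16 (adjusted p = 0.000243 and 0.000396). The high dose was lower than the low dose by 0.53 at 24 h and 0.45 at 48 h (adjusted p = 0.02 and 0.0299).

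Across the 12 group means, the genes whose pattern was most like that of MED21 were RRAGA (Pearson r = 0.994), ISCA2 (0.992), GEMIN6 (0.991), TMEM139 (0.987) and TMEM138 (0.987), among 11404 genes compared. These correlations are descriptions that share arrays and normalization, and the Ota high dose at 24 h contributes an extreme point to each. TMEM138 had a mean of 2.73 there, against 8.53 in the vehicle cultures, and RRAGA, a small GTPase of the mTORC1 nutrient-sensing pathway, 6.43 against 9.87.

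The Ota high dose at 24 h changed most of the complex, and mostly downward. Of the 28 members with a test, 22 were called, 5 higher and 17 lower. Over all 11029 genes tested, 64% were called, 21.6% higher and 42.4% lower. The median change of the members was -1.10, against -0.26 for all genes tested, and the mean difference between array medians was -0.64. With arrays shifted to the same median, 9 members were higher and 14 lower. The calls of MED10, MED14 and MED23 were then lost, and CCNC, MED1, MED9 and MED17 were called higher. Before the shift MED9 lay between 3.65 and 4.25 on all arrays of both groups and had no dependable level. Shares of all genes, here and below, belong to the main setting. They are no background for counts under any other setting, such as shifted arrays or quantile normalization.

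The head module contacts the polymerase and the initiation factors. Of its 6 tested subunits, 4 fell and none rose, where 42.4% of all genes were lower and 21.6% higher. MED20, which forms a mobile dimer with MED18, had log2 values of 2.77, 2.34 and 3.39 in the Ota high dose cultures at 24 h, against 8.27, 7.65 and 8.29 in the vehicle cultures. Every high dose array was under 4, so the level was at least 16.8-fold lower (fitted change -5.23 ± 0.36, adjusted p = 7.39e-09; -4.60 with shifted arrays). The second MED20 probe set was also called, at -3.46. MED8, which links MED18 and MED20 to the rest of the head, changed by -3.18 ± 0.22 (adjusted p = 7.39e-09). MED22 and MED11, partners in a small bundle of helices in the head, changed by -2.64 ± 0.34 and -2.48 ± 0.33 (adjusted p = 6.47e-06 and 8.92e-06). MED17, the central head subunit, was not called at +0.32 ± 0.16 (adjusted p = 0.0878). Its second probe set was called at +2.48, so the 2 sets share a direction but differ in size and call at this time. MED18 lay between 3.65 and 4.07 on all arrays of both groups and had no dependable level.

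In the tail, MED16 fell and MED15 rose. MED16 had log2 values of 4.56, 5.86 and 3.64 in the Ota high dose cultures at 24 h, against 8.86, 8.95 and 8.74 in the vehicle cultures. The groups lay far apart, with a change of -4.16 ± 0.37 (adjusted p = 9.72e-08; -3.52 with shifted arrays). Of the 4 other MED16 probe sets, 3 were called lower, by -2.50, -2.08 and -0.75, and the remaining one did not pass at -0.04. MED15, which receives activators such as SREBP and SMAD proteins, rose by 0.65 ± 0.15 (adjusted p = 0.00144). MED23, a target of MAP kinase-regulated ETS factors, was called at -0.95 ± 0.35 (adjusted p = 0.0283), but this call rests on 1 array. Its high dose values were 8.77, 7.04 and 9.10, against 9.29, 9.24 and 9.23, and without high dose replicate 2 the change was -0.32. The call was also lost without any 1 of the vehicle replicates, while of the 3 other MED23 probe sets 2 were called lower, by -0.70 and -1.35, and 1 higher, by 0.88.

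Promoter sequences of 2 members with large falls, MED20 and MED16, and of 2 that rose, MED26 and MED27, are shown here because these genes of 1 complex moved in opposite directions. They were taken from RefSeq (GRCh38.p14) and run 5′ to 3′ on the minus strand, 300 bases each around the annotated start. Capitals mark matches on either strand to the GC box (GGGCGG), the CCAAT box (CCAAT) and the TATA box (TATAAA), including overlapping ones. The ETS letters CCGGAAG and the NRF1 motif were also searched.
MED20, chr6:41920894-41921193: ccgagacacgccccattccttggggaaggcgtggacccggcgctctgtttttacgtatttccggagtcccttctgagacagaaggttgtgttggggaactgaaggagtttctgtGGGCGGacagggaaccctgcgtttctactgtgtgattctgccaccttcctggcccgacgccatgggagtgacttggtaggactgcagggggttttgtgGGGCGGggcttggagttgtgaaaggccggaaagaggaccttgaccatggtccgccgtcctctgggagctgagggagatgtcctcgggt
MED16, chr19:893138-893437: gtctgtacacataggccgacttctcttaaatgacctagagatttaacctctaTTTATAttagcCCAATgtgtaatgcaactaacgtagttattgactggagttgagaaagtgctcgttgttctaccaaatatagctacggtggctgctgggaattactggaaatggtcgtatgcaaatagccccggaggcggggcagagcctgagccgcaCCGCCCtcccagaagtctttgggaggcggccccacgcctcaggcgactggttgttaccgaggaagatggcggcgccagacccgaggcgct
MED26, chr19:16628155-16628454: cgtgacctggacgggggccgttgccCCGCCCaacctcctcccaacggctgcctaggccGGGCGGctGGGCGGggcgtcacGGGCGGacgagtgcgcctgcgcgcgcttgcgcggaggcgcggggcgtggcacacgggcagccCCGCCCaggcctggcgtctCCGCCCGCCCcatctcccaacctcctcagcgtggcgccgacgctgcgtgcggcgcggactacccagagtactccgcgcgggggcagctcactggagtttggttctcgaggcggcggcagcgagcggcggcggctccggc
MED27, chr9:132079818-132080117: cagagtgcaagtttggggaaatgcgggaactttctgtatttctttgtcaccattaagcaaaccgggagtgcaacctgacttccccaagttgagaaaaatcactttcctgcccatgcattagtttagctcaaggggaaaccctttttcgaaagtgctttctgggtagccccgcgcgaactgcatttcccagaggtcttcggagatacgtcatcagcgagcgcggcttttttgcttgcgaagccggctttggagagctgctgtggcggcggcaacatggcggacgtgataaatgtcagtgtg
The MED20 window held 2 GC boxes. That of MED16 held 1 GC box, 1 CCAAT box and 1 TATA box. That of MED26 held 7 GC boxes, and that of MED27 held none of the motifs searched. Promoters were available for 24 members, 29 windows in all. A GC box was present in 17 of the 29, against 45.0% of 35116 human promoters of the same length, a CCAAT box in 11 against 34.6%, an ETS site in 8 against 10.3%, a TATA box in 2 against 11.5% and an NRF1 site in 1 against 1.24%. A match is only a match of letters and does not show binding.

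The 4 metazoan subunits at the border of head and tail split evenly at the Ota high dose at 24 h: MED29 and MED28 fell, MED30 and MED27 rose. MED29, the human counterpart of the fly protein Intersex, had log2 values of 4.23, 4.52 and 5.44 with the high dose, against 8.99, 8.78 and 8.62 with vehicle. This was a change of -4.06 ± 0.28 (adjusted p = 6.78e-09; -3.43 with shifted arrays). MED28 changed by -2.73 ± 0.24 (adjusted p = 9.67e-08), and 4 of its 5 other tested probe sets were called lower too, from -2.26 to -5.68, while the remaining one was not called at +0.46. MED30 moved the other way, with 9.07, 9.02 and 9.55 in the high dose cultures against 7.81, 7.41 and 8.04 in the vehicle cultures (+1.46 ± 0.18, adjusted p = 3.11e-06). MED27 had 9.74, 9.57 and 9.81, against 8.17, 8.48 and 8.46 (+1.33 ± 0.14, adjusted p = 6.54e-07). No high dose array overlapped the vehicle arrays for these 4 genes, though MED29, MED30 and MED27 were picked among members without overlap. The second tested probe sets of MED30 and MED27 rose as well, by 1.51 and 1.18.

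The middle module showed the largest rise beside its falls. MED26, which recruits elongation factors to the polymerase, had 12.40, 12.14 and 12.27 in the Ota high dose cultures at 24 h, against 9.16, 9.12 and 9.29 in the vehicle cultures. It was thus 8.45-fold higher (+3.08 ± 0.18, adjusted p = 1.25e-09), and a second probe set was called at +2.32. Of the 8 middle subunits with a test, MED26 alone rose and 5 fell, where 21.6% of all genes were higher and 42.4% lower. The falls were -2.99 ± 0.38 for MED7, -2.37 ± 0.34 for MED4, -2.09 ± 0.18 for MED19, -1.44 ± 0.28 for MED31 and -0.99 ± 0.28 for MED10. MED4 is a middle subunit that pairs with MED9, MED31 is a small subunit bound to MED7, and MED19 sits where the kinase module docks. The second MED19 probe set did not pass (+0.08, adjusted p = 0.609), and a MED31 probe set of lower rank was called the other way (+1.20). MED1, which binds nuclear receptors, had 10.89, 10.50 and 11.12 with the high dose and 10.72, 10.93 and 10.91 with vehicle, and was not called (-0.01 ± 0.14, adjusted p = 0.937).

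MED14, the scaffold, was called at -0.44 ± 0.11 (adjusted p = 0.0032), but this direction rests on the scaling. Its values were 9.14, 9.01 and 9.22 with the Ota high dose at 24 h, against 9.62, 9.48 and 9.60 with vehicle, and did not overlap. With arrays shifted to the same median the change was +0.20 (adjusted p = 0.136), and the second MED14 probe set was called at +0.54.

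In the kinase module, MED12, CDK19 and CDK8 fell, MED13 rose, and CCNC and MED13L were not called. MED12, which activates the kinase, had 3.29, 4.46 and 3.09 in the Ota high dose cultures at 24 h, against 6.82, 6.58 and 6.43 in the vehicle cultures (-2.997 ± 0.33, adjusted p = 1.15e-06; -2.46 with values at or under 4 set to 4). Both other tested MED12 probe sets were called lower, by -3.45 and -2.09. CDK8 had 7.42, 6.96 and 7.49, against 8.61, 8.33 and 8.56 (-1.21 ± 0.19, adjusted p = 5.1e-05), and all 3 of its probe sets were called lower. CDK19 had 8.19, 7.80 and 8.79, against 9.75, 9.92 and 9.57 (-1.49 ± 0.19, adjusted p = 5.13e-06), while another of its sets was not called at +0.22. MED13, which tethers the module to the core, had 11.66, 11.49 and 11.42, against 10.88, 10.94 and 10.60 (+0.72 ± 0.13, adjusted p = 0.000224), while another of its sets was called at -1.13. CCNC, the cyclin partner, had 12.53, 12.33 and 12.71, against 12.66, 12.56 and 12.88, with overlap (-0.18 ± 0.13, adjusted p = 0.226). MED13L was not called on its main set (-0.35 ± 0.21, adjusted p = 0.151), but both its other tested sets were called higher, by 1.21 and 0.79.

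**Figure D2:**
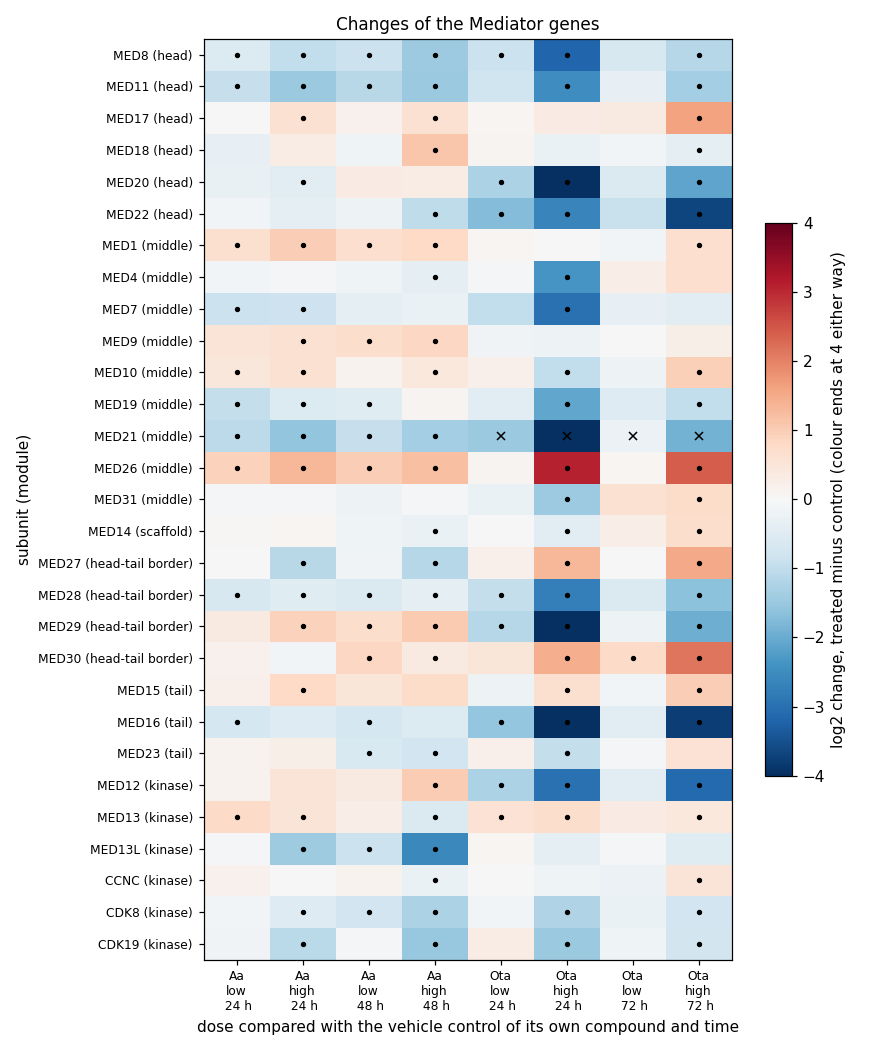
Log2 change against the vehicle cultures for the 29 tested members (rows, by module) in the 8 dose comparisons (columns); dots mark calls at an adjusted p under 0.05, crosses mark MED21 with Ota, which was not tested, and the colour scale ends at 4 in each direction. With the Ota high dose at 24 h 17 members were called lower and 5 higher, and with the Ota low dose at 72 h 1 member was called.

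The Ota low dose at 24 h moved fewer members and by less. Of 28, 8 were called, 1 higher and 7 lower, while 14.7% of all genes were called, 4.66% higher and 10% lower. Both doses are set against the same vehicle cultures. MED22 had 5.62, 4.68 and 5.24 with the low dose, against 7.05, 6.84 and 6.88 (-1.74 ± 0.34, adjusted p = 0.00277). MED16 had 7.34, 7.04 and 7.49, against 8.86, 8.95 and 8.74 (-1.56 ± 0.37, adjusted p = 0.00905), and MED12 had 5.92, 5.22 and 4.87, against 6.82, 6.58 and 6.43 (-1.28 ± 0.33, adjusted p = 0.0166). For MED16 and MED12 the low dose arrays lay between those of the high dose and of the vehicle. MED20, MED29, MED28 and MED8 changed by -0.85 to -1.26. Other probe sets were called lower for MED20 (-1.36), MED16 (-1.12 each) and MED28 (-1.16 and -0.70). Not called were the other tested sets of MED12 (-0.97 and -0.29) and MED8 (-0.23 and -0.37). A further MED16 set (-0.13) and further MED28 sets (-1.02, -1.40 and +0.07) were not called either. MED13 was the only rise on main probe sets, with 11.38, 11.58 and 11.19, against 10.88, 10.94 and 10.60 (+0.58 ± 0.13, adjusted p = 0.0079). Its other tested sets were not called, at +0.41 and -1.06. Lower-ranked sets of MED14 (+0.72), MED23 (+1.36) and MED17 (+1.76) were called higher, while the main sets of these genes were not called. The count fell to 4 without vehicle replicate 1 and to 2 without low dose replicate 2, when MED22 and MED16 kept their calls. With shifted arrays (a difference of -0.12 between array medians), and with quantile normalization, 2 members were higher and 6 lower. Between the 2 doses at 24 h, 21 members differed, 4 higher and 17 lower with the high dose (58.1% of all genes, 19.4% higher and 38.7% lower), or 9 and 14 with shifted arrays.

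At 72 h the Ota high dose left the complex divided almost evenly. Of 28 members, 23 were called, 11 higher and 12 lower, against 63.4% of all genes, 26.3% higher and 37% lower. The median change of the members was -0.08, against -0.12 for all genes, with a difference of -0.33 between array medians. With shifted arrays 14 were higher and 11 lower. MED16, MED22 and MED12 carried the largest tested falls. MED16 had 4.65, 4.16 and 4.85 with the high dose, against 8.19, 8.30 and 8.43 with vehicle (-3.75 ± 0.37, adjusted p = 3.36e-07). MED22 had 3.52, 3.53 and 4.68, against 7.47, 7.72 and 7.59 (-3.68 ± 0.34, adjusted p = 2e-07; -3.36 with values at or under 4 set to 4). MED12 had 3.08, 3.11 and 3.94, all under 4, against 6.41, 6.51 and 6.54, and was at least 5.60-fold lower (adjusted p = 8.39e-07). None of these arrays overlapped the vehicle range, a property required for a place among these largest changes.

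Among the rises at 72 h, MED26 had 11.43, 11.71 and 11.08 with the Ota high dose, against 8.80, 9.31 and 8.86 with vehicle (+2.42 ± 0.18, adjusted p = 2.06e-08). MED30 had 9.37, 9.67 and 9.33, against 7.07, 7.42 and 7.48 (+2.13 ± 0.18, adjusted p = 5.78e-08). MED17 had 10.48, 10.42 and 10.60, against 8.91, 9.00 and 8.73 (+1.62 ± 0.16, adjusted p = 2.83e-07), and its second probe set was called at +3.84. The members called higher at both times with the high dose were MED13, MED15, MED26, MED27 and MED30, and those called lower at both were MED8, MED11, MED12, MED16, MED19, MED20, MED22, MED28, MED29, CDK8 and CDK19. In the kinase module CDK8 had 8.51, 8.08 and 7.80, against 8.96, 8.88 and 8.84 (-0.76 ± 0.19, adjusted p = 0.00273), and CDK19 had 9.08, 9.09 and 9.01, against 9.84, 9.89 and 9.64 (-0.73 ± 0.19, adjusted p = 0.0033). The other tested CDK19 sets were not called at 72 h (-0.36 and -0.20). Another CDK8 set was called (-0.67) and the remaining one was not (-0.66). The second MED19 set was not called at 72 h (-0.13). The other tested sets of MED12 (-3.35 and -2.48) and MED20 (-1.89) were called lower. CCNC rose at this time, with 13.59, 13.40 and 13.51, against 12.91, 13.02 and 13.06 (+0.50 ± 0.13, adjusted p = 0.00256). MED1 rose as well, with 11.84, 11.63 and 11.56, against 10.96, 11.02 and 11.06 (+0.66 ± 0.14, adjusted p = 0.000702), as did each of its 3 other probe sets. The MED13 call (+0.42) was lost without vehicle replicate 3. The MED31 call (+0.74) was lost without any 1 vehicle array or without high dose replicate 1 or 3, and the MED18 call (-0.40) was lost with values at or under 4 set to 4.

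**Figure D3:**
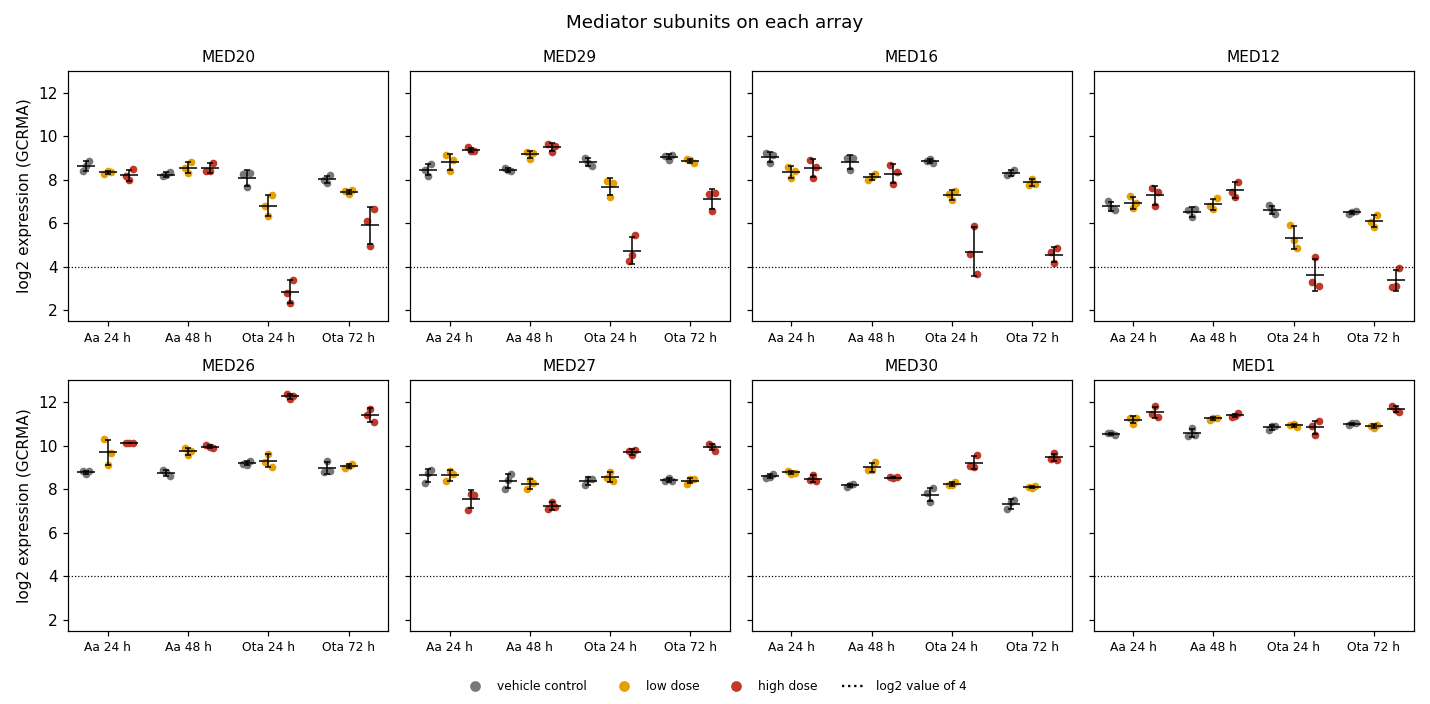
Log2 expression of 8 members on each of the 36 arrays (points), with the mean and SD of each group of 3 (bars). MED20 reached 2.34 to 3.39 with the Ota high dose at 24 h and 4.95 to 6.65 at 72 h, while MED26 lay between 11.08 and 12.40 in the same 2 groups.

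The high dose effect of Ota differed between 72 h and 24 h for 17 of 28 members (53.8% of all genes, 33% with a higher and 20.8% with a lower change at 72 h). In 16 the change at 72 h was the higher one and in 1, MED26, the lower. With shifted arrays, in which the larger array shift at 24 h is removed, 11 were higher and 3 lower. MED20 had 6.08, 4.95 and 6.65 with the high dose at 72 h, against 7.97, 7.84 and 8.19, so that its change was higher than at 24 h (adjusted p = 0.000134). The size of this difference has only a lower bound of 1.96, with values at or under 4 set to 4, since every high dose array of 24 h lay under 4. MED4, called lower at 24 h, was not called at 72 h (+0.66 ± 0.34, adjusted p = 0.1), a difference of 3.03 ± 0.48 (adjusted p = 8.88e-05). With shifted arrays MED4 was called higher at 72 h, at +0.99, and its second probe set was called at -1.73 at 24 h and +1.56 at 72 h. MED10, MED14 and MED31 were called lower at 24 h and higher at 72 h, and MED14 had 10.00, 10.15 and 10.16 at 72 h, against 9.45, 9.53 and 9.23 (+0.70 ± 0.11, adjusted p = 6.31e-05). Of these 3, MED10 and MED14 were not called lower at 24 h with shifted arrays, and the MED10 arrays of 24 h overlapped between high dose and vehicle. MED16, MED12 and MED22, with their large falls at both times, showed no called difference. The high dose arrays of MED12 lay between 3.09 and 4.46 at 24 h and between 3.08 and 3.94 at 72 h. Those of MED22 lay between 3.55 and 4.68 and between 3.52 and 4.68. So near 4, a difference between times could hardly be resolved for MED12 and MED22, and no equal fall is read from this. The vehicle cultures of the 2 times differed in 4 members, MED8, MED10 and MED13L higher and MED15 lower at 72 h (29.8% of all genes, 14% higher and 15.8% lower).

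**Figure D4:**
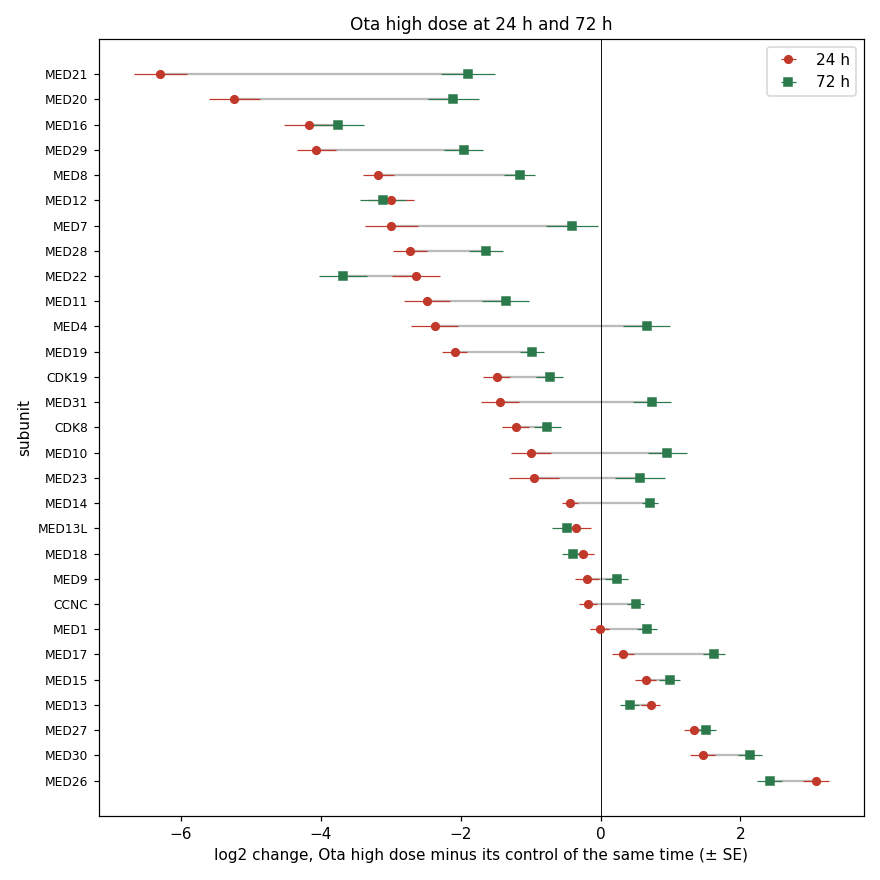
Log2 change with the Ota high dose at 24 h and at 72 h for each tested member, with SE; MED21 is shown as a description. The fitted change of MED20 was -5.23 at 24 h, where all high dose arrays lay under 4, and -2.11 at 72 h, and MED4 changed by -2.37 and +0.66, and MED16 by -4.16 and -3.75.

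With the Ota low dose at 72 h, MED30 was the only member called of 28, while 17.1% of all genes were called, 9.79% higher and 7.28% lower. It had 8.09, 8.06 and 8.13 with the low dose, against 7.07, 7.42 and 7.48 with vehicle (+0.77 ± 0.18, adjusted p = 0.0072). Some other settings called 2 to 4 members here, with MED19 added at -0.53 by shifted arrays. MED22, MED8 and MED28, at -0.88, -0.63 and -0.57, did not pass. The second MED17 probe set was called higher with the low dose, by 1.76 at 24 h and 1.72 at 72 h, where the main set showed +0.09 and +0.35 without a call. The second MED14 set was called higher with the low dose at 72 h as well, by 0.58. Between the 2 doses at 72 h, 19 members differed, 9 higher and 10 lower with the high dose (58.4% of all genes, 21.7% higher and 36.7% lower). This split was 10 and 7 with quantile normalization and 13 and 6 with shifted arrays.

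With the Aa high dose at 24 h, 19 of 29 members were called, 8 higher and 11 lower, against 51.3% of all genes, 27.4% higher and 24% lower. The median change was -0.06 for the members and 0.03 for all genes. The largest falls were those of MED21, given above, MED11 and MED13L. MED11 had 7.11, 7.62 and 7.16 with the high dose, against 8.53, 8.91 and 8.88 with vehicle (-1.48 ± 0.26, adjusted p = 0.000226). MED13L, the paralogue of MED13, had 6.13, 6.63 and 5.79, against 7.69, 7.80 and 7.30 (-1.41 ± 0.27, adjusted p = 0.000453). MED26 rose most, with 10.11, 10.12 and 10.10, against 8.83, 8.70 and 8.82 (+1.33 ± 0.20, adjusted p = 5.26e-05). MED1 had 11.46, 11.82 and 11.33, against 10.56, 10.59 and 10.51 (+0.99 ± 0.13, adjusted p = 1.95e-05), and its 3 other probe sets were called higher too. MED29 had 9.48, 9.30 and 9.32, against 8.45, 8.18 and 8.70 (+0.92 ± 0.17, adjusted p = 0.000415). All 6 genes were free of overlap between high dose and vehicle arrays, a property required for a place among these largest changes. The calls of MED15 (+0.80) and MED20 (-0.42) were each lost without any of several single arrays, and that of MED13 (+0.53) without vehicle replicate 3. With the replicate number as a block, MED12 and MED16 were called as well.

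With the Aa high dose at 48 h, 23 of 29 members were called, 9 higher and 14 lower, against 66% of all genes, 30.9% higher and 35.1% lower. In the kinase module 5 of 6 tested members fell. The median change of all 29 members was -0.26, against -0.04 for all genes. MED13L had 5.81, 5.67 and 4.85 with the high dose, against 8.11, 8.26 and 7.66 with vehicle (-2.57 ± 0.27, adjusted p = 9e-07), and its other 2 tested probe sets were called lower by -1.69 and -1.42. CDK19 had 8.60, 8.61 and 8.06, against 10.05, 10.07 and 9.65 (-1.50 ± 0.24, adjusted p = 5.54e-05), although a dimmer set was called at +0.96. CDK8 had 7.60, 7.00 and 7.23, against 8.66, 8.52 and 8.49 (-1.28 ± 0.16, adjusted p = 4.95e-06). MED13 had 10.39, 10.38 and 10.04, against 10.93, 11.04 and 10.60 (-0.59 ± 0.15, adjusted p = 0.00322). CCNC had 11.96, 12.26 and 12.22, against 12.28, 12.45 and 12.54 (-0.28 ± 0.11, adjusted p = 0.04), a call lost without high dose replicate 1, without vehicle replicate 2 or 3 and with either rescaling. MED12 was the one kinase module gene that rose, with 7.44, 7.19 and 7.91, against 6.61, 6.26 and 6.65 (+1.01 ± 0.23, adjusted p = 0.00143).

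Outside the kinase module at 48 h, MED11 had 7.01, 6.77 and 7.29 with the Aa high dose, against 8.05, 8.77 and 8.74 with vehicle (-1.50 ± 0.26, adjusted p = 0.000122). MED26 had 10.03, 9.92 and 9.89, against 8.87, 8.77 and 8.61 (+1.20 ± 0.20, adjusted p = 7.88e-05), and MED29 had 9.64, 9.28 and 9.54, against 8.54, 8.44 and 8.37 (+1.04 ± 0.17, adjusted p = 8.84e-05). MED18 had 4.99, 5.45 and 6.22, against 4.74, 4.49 and 4.09 (+1.11 ± 0.40, adjusted p = 0.0226), a call lost without high dose replicate 3 or vehicle replicate 3. MED28 was called lower on its main set (-0.39), while 2 of its other sets were called higher, by 0.94 and 0.38. With the replicate block, MED7, MED15, MED16 and MED20 were called as well.

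The Aa low dose called 11 of 29 members at 24 h, 4 higher and 7 lower (25.1% of all genes, 11.6% higher and 13.5% lower), and 14 at 48 h, 5 higher and 9 lower (37.9%, 18.8% higher and 19.1% lower). The doses of a time share their vehicle cultures. Side by side, MED8 changed by -0.97 with the high and -0.54 with the low dose at 24 h, and by -1.45 and -0.87 at 48 h, and MED28 by -0.47 and -0.65 at 24 h and by -0.39 and -0.59 at 48 h. The other MED8 sets were not called with the low dose at 24 h (-0.10 and -0.28). At 24 h MED19 had 7.21, 7.24 and 7.03 with the low dose, against 7.94, 8.05 and 8.35 (-0.95 ± 0.14, adjusted p = 0.000155), and MED11 had 7.70, 8.01 and 7.86, against 8.53, 8.91 and 8.88 (-0.92 ± 0.26). MED26 had 10.29, 9.13 and 9.69, against 8.83, 8.70 and 8.82 (+0.92 ± 0.20, adjusted p = 0.00334), MED13 had 11.27, 11.39 and 11.16, against 10.55, 10.71 and 10.22 (+0.78 ± 0.15), and MED1 had 11.27, 11.01 and 11.29, against 10.56, 10.59 and 10.51 (+0.64 ± 0.13). The count at 24 h fell to 7 without low dose replicate 1, where the calls of MED8, MED10, MED11 and MED16 were lost. With the replicate block, MED9, MED20 and MED29 were called as well.

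At 48 h the largest falls with the Aa low dose were those of MED11, MED21 and MED8, and the largest rises those of MED26, MED30 and MED9. MED11 had 6.76, 7.85 and 7.58, against 8.05, 8.77 and 8.74 (-1.12 ± 0.26, adjusted p = 0.00354), and MED8 had 7.27, 7.80 and 7.69, against 8.31, 8.47 and 8.59 (-0.87 ± 0.17, adjusted p = 0.00113). Another MED8 set was called lower (-0.62) and the remaining one was not called (-0.14). MED26 had 9.89, 9.56 and 9.75, against 8.87, 8.77 and 8.61 (+0.98 ± 0.20, adjusted p = 0.00133), and MED30 had 8.90, 8.86 and 9.26, against 8.11, 8.17 and 8.25 (+0.83 ± 0.11, adjusted p = 6.79e-05). MED9 had 5.31, 4.69 and 5.12 with the low dose, against 4.38, 4.22 and 4.35 (+0.72 ± 0.18). MED13L (-0.86), MED16 (-0.69) and MED23 (-0.62) were called too, but each call was lost without vehicle replicate 1. With the replicate block, MED7, MED13, MED15 and MED20 were called as well.

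MED13L, CDK19 and MED27 were lower with the high than with the low dose of Aa at both times. High minus low was -1.32 ± 0.27, -0.91 ± 0.24 and -1.10 ± 0.22 at 24 h and -1.71 ± 0.27, -1.45 ± 0.24 and -1.002 ± 0.22 at 48 h. In all, 7 members differed between doses at 24 h, 3 higher and 4 lower with the high dose (27.1% of all genes, 17.1% higher and 9.95% lower), and 13 at 48 h, 4 higher and 9 lower (46.5%, 20.9% higher and 25.6% lower). The 24 h count was 13 with the replicate block, 3 without low dose replicate 2 and 4 without high dose replicate 1, and its split was 2 higher and 7 lower with shifted arrays, the array medians having differed by 0.12. The high dose effect differed between 48 h and 24 h for 6 members (20.7% of all genes, 7.14% higher and 13.6% lower), or 13 with the replicate block. MED13 was called higher at 24 h and lower at 48 h, a difference of -1.12 ± 0.22 (adjusted p = 0.00314). The split of the 6 was 2 higher and 4 lower, and 3 and 3 with shifted arrays or quantile normalization. Between the vehicle cultures of the 2 times limma called 0 members (1.29% of all genes, 0.565% higher and 0.729% lower), and 4 with the replicate block.

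At 24 h, the time both compounds share, the high dose effects of Ota and Aa differed for 22 of 28 members, 4 higher and 18 lower with Ota (59.4% of all genes, 18.7% higher and 40.7% lower), or 7 and 11 with shifted arrays. The doses cannot be taken as matched, so the sizes are properties of these doses. MED29 and MED10 rose with Aa and fell with Ota. The difference was -4.98 ± 0.34 for MED29 (adjusted p = 1.23e-12) and -1.61 ± 0.34 for MED10 (adjusted p = 0.000162), although the fall of MED10 with Ota lost its call with shifted arrays. MED27 did the opposite. It had 7.06, 7.79 and 7.75 with the Aa high dose, against 8.31, 8.75 and 8.87 with vehicle (-1.11 ± 0.22, adjusted p = 0.000711), while it rose with Ota, a difference of +2.44 ± 0.27 (adjusted p = 1e-08). MED26 rose with both and more with Ota, by 1.75 ± 0.27 (adjusted p = 3.55e-06). MED13 and MED15 also rose with both, and MED7, MED8, MED11, MED19, MED20, MED28, CDK8 and CDK19 fell with both. MED1 rose with Aa and was not called with Ota, and the difference was -1.001 ± 0.19 (adjusted p = 5.54e-05; -0.26 with shifted arrays). On its main probe set MED21 was at least 31.2-fold lower with the Ota high dose, and changed by -1.58 with Aa on the log2 scale. The second set changed by -4.52 with Ota and -1.59 with Aa.

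**Figure D5:**
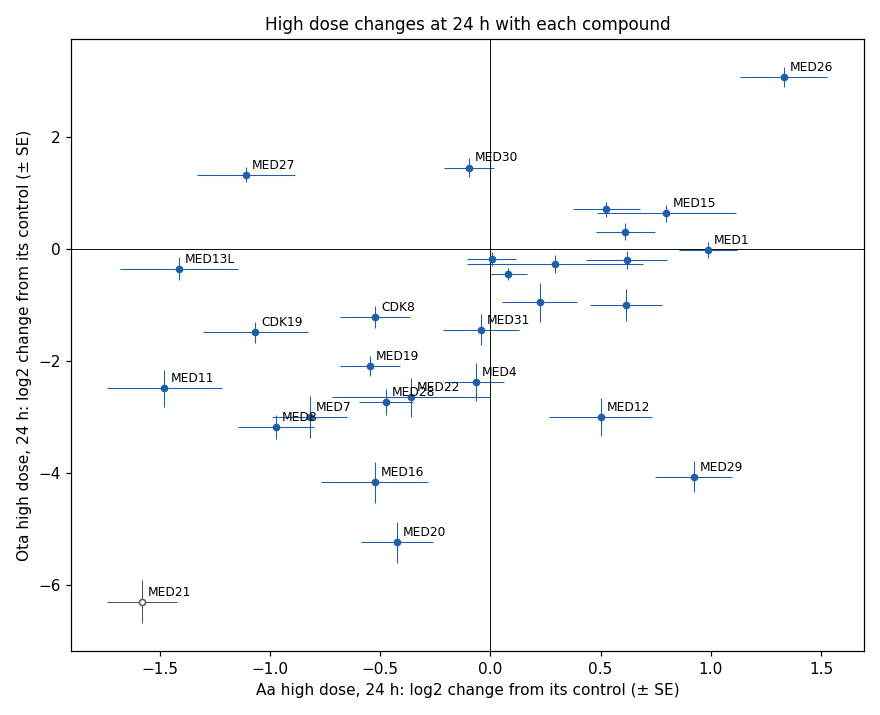
Log2 change with the high dose at 24 h for Ota and Aa, one point per tested member, with SE on both axes; the open circle is MED21, whose Ota value was not tested. MED29 lies at +0.92 for Aa and -4.06 for Ota, MED27 at -1.11 and +1.33, and MED26 at +1.33 and +3.08.

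Other parts of the polymerase II machinery were read from lists of subunits and factors. With the Ota high dose at 24 h, 1 of 12 polymerase II subunits was higher and 2 lower, 5 of 20 general initiation factors were higher and 9 lower, 1 of 9 TFIIH members was higher and 5 lower, and 3 of 16 elongation factors were higher and 10 lower, where 21.6% of all genes were higher and 42.4% lower. The largest fall in each list was that of GTF2H4, a TFIIH subunit (-4.14 ± 0.19, or -3.21 with values at or under 4 set to 4), POLR2D, a polymerase II subunit (-3.74 ± 0.44), GTF2E2, the TFIIE beta subunit (-3.40 ± 0.34), and SUPT6H, a histone chaperone of elongation (-2.46 ± 0.32). The largest rise was that of ELL2, a subunit of the super elongation complex, to which MED26 binds (+1.79 ± 0.41). At 72 h ELL2 was higher by 3.43 ± 0.41. In that comparison 4 polymerase II subunits were higher and 5 lower, 7 and 5 initiation factors, 3 and 6 TFIIH members, and 4 and 8 elongation factors (26.3% and 37% of all genes). With the Aa high dose the counts, higher and lower, were 3 and 4, 8 and 2, 4 and 3, and 3 and 2 at 24 h, in the same order of lists (27.4% and 24% of all genes), and 5 and 3, 8 and 3, 3 and 3, and 5 and 4 at 48 h (30.9% and 35.1%). Nothing particular to a list is read from these counts. POLR2A, the largest polymerase II subunit, was higher by 1.79 ± 0.23 with the Ota high dose at 72 h, and by 1.70 ± 0.17 and 2.09 ± 0.17 with the Aa high dose at 24 h and 48 h. The medians of the 4 lists at the Ota high dose at 24 h ran from -0.64 for TFIIH to -0.11 for the polymerase II subunits, against -1.10 for the Mediator members and -0.26 for all genes.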

How the data were processed

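Total RNA of HK-2 cultures was hybridised to Affymetrix U133 Plus 2.0 arrays. The authors deposited log2 values, 1 per probe set, from GCRMA, as the submitters' processing notes name it. This method corrects background by probe sequence and normalizes arrays against each other, so a broad loss of transcripts is partly absorbed. Its version is not given in the sources used here, nor is the set of arrays normalized as 1 batch. The number of arrays limits the precision, with 3 per group.

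Of 54675 probe sets, 41091 had 1 symbol in the platform annotation and were used, 1801 had several, 11721 had none and 62 were controls. Each of 19775 genes was represented by its brightest set (_x_at last). Genes over 4 on at least 3 arrays were fitted with limma 3.58.1 in R 4.3.3 (lmFit and eBayes, group means): 10972 for Aa and 11029 for Ota, each over 18 arrays with 12 residual degrees of freedom, and 11405 over all 36 for the comparison of compounds, with 24. Calls are two-sided at a Benjamini-Hochberg adjusted p under 0.05 over all genes of a comparison. Levels are mean ± SD and changes ± SE. A fold against a group with no array over 4 is a lower bound, taken against 4. The fit was tested on simulated data with known changes. Figures used matplotlib 3.10.9 in Python 3.11.15.

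The members and lists were chosen with earlier results of these data known. Values on every array are given for MED21, for the 3 largest non-overlapping called changes each way per dose comparison, and for the kinase module, MED14 and MED1 in at least 1 compound. P-values measure the spread between cultures of 1 line.

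Same-numbered arrays deviated together (each correlation over 0.1) in all Aa comparisons and in both Ota dose comparisons at 24 h, where the labels' replicate numbers were taken to pair cultures, but not in the other Ota comparisons. Correlations ran from 0.19 to 0.58 for Aa. Other settings tried were the replicate block, a common array median, quantile normalization, values at or under 4 set to 4, no filter, all probe sets, all 36 arrays in 1 fit, and each replicate left out.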

Additional observations from a re-analysis of the deposited data

Results flagged for a closer look

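Effects under the same contrast differed between times or compounds, by limma interaction tests, in 45 pairs of member and comparison. These were the Ota high dose effect at 72 h against 24 h (17 members), the high dose effect of Ota against Aa at 24 h (22 members) and the Aa high dose effect at 48 h against 24 h (6 members). Each value is a difference of 2 log2 changes, later minus earlier or Ota minus Aa.

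For Ota over time, the head subunits MED8 and MED17 differed by 2.02 and 1.30. The fitted difference of MED20 was 3.12, but 1.96 with values at or under 4 set to 4, since its high dose arrays of 24 h all lay under 4. In the middle module the differences were 3.03 for MED4, 2.58 for MED7, 2.18 for MED31, 1.95 for MED10, 1.10 for MED19 and 0.68 for MED1, with MED26 at -0.66. MED29 differed by 2.11, MED28 by 1.09 and MED30 by 0.67, all border subunits. The MED14 scaffold differed by 1.14 and the tail subunit MED23 by 1.52. In the kinase module CDK19 differed by 0.76 and CCNC by 0.68. The array median over the tested genes lay 0.64 below the vehicle cultures at 24 h and 0.33 below at 72 h. With shifted arrays the split was 11 higher and 3 lower.

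Between compounds at 24 h, the border subunits MED29 and MED28 differed by -4.98 and -2.25, and the head subunits MED22, MED8 and MED11 by -2.28, -2.20 and -1.005. The fitted difference of MED20 was -4.81, but -3.64 with values at or under 4 set to 4, since its Ota high dose arrays all lay under 4. Ota was the higher for MED27 by 2.44, for MED26 by 1.75, for MED30 by 1.56 and for MED13L by 1.07. The MED13L value rests on its main probe set. The tail subunits MED16 and MED23 differed by -3.64 and -1.17, the scaffold MED14 by -0.52, and the kinase module genes MED12 and CDK8 by -3.50 and -0.69. The fitted MED12 value rests in part on Ota high dose arrays under 4, at 3.29 and 3.09. In the middle module the differences were -2.31 for MED4, -2.17 for MED7, -1.61 for MED10, -1.54 for MED19, -1.40 for MED31, -1.001 for MED1 and -0.81 for MED9. The Ota high dose and vehicle arrays of MED9 lay near 4, between 3.65 and 4.25.

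For Aa over time, the high dose effect was lower at 48 h by -1.16 for MED13L, -1.12 for MED13, -0.998 for MED23 and -0.76 for CDK8, and higher by 0.72 for MED20 and 0.65 for MED19.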

How the results depend on the processing

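Of 121 called pairs of member and dose comparison, 92 kept their direction and their call under every alternative run, and 29 did not. Calls were lost in 26 pairs when any 1 replicate was left out, 12 without the filter on low values, 10 with all 36 arrays in 1 fit, 8 with shifted arrays, 6 with quantile normalization, 2 with all probe sets, 1 with values at or under 4 set to 4 and 1 with the replicate block. One direction turned, that of MED14 with the Ota high dose at 24 h, to 0.20 with shifted arrays. The number of members called moved over 1.5 times in these cases. For the Ota low dose at 72 h (1) it was 2 with values set to 4, quantile normalization, shifted arrays or the replicate block, and 4 with 36 arrays, 1 higher and 3 lower. For Aa high against low dose at 24 h (7) it was 13 with the block and 4 with 36 arrays, 1 higher and 3 lower. For the Aa effect over time (6) it was 13 and for the Aa vehicle cultures (0) it was 4, both with the block. The replicate block is a check of pairing in Aa and in the Ota dose comparisons at 24 h only. With Ota at 72 h it lost MED18 and gained MED13L in the high dose, and gained MED31 in the low dose, and the samples share only a number there. It lost no other of the 121 calls. MED21 with the Ota high dose at 24 h was -4.96 with values set to 4, -5.66 with shifted arrays and -4.52 by its second probe set. The causes were not tested. Leaving out single replicates gave 16 to 19 members for the Aa high dose and 7 to 11 for the low dose at 24 h, 20 to 23 and 12 to 13 at 48 h, 3 to 8 and 10 to 15 between Aa doses at 24 h and 48 h, 2 to 7 over time and 0 to 1 between vehicle cultures. For Ota the ranges were 21 to 23 (high) and 2 to 8 (low) at 24 h, 21 to 22 and 1 to 2 at 72 h, 20 to 22 and 17 to 19 between doses, 14 to 18 over time, 3 to 4 between vehicle cultures and 20 to 22 between compounds. Signals at or under 4, as for MED18 with Ota, limit what these arrays resolve.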
